A study of Mus musculus with 8 samples.

Results

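The cyclin D, CDK4/6 and Rb pathway with its inhibitors was examined in single endocardium cells of mouse hearts at E8.5 by its 10 genes *Ccnd1*, *Ccnd2*, *Ccnd3*, *Cdk4*, *Cdk6*, *Cdk2*, *Cdkn1a*, *Cdkn1b*, *Rb1* and *Myc*, of 35526 genes on the array. They were chosen by name, with earlier results of these data known, and all their 14 noncontrol probes of 55295 usable probes were kept. The WT group was 4 cells of genotype Mesp1+/+_Sox17flox/flox, which lacked Cre, and the KO group was 4 cells of genotype Mesp1Cre/+_Sox17flox/flox, in which Cre expressed from *Mesp1* deletes *Sox17* in the mesoderm, so that both groups carried the floxed *Sox17* alleles. Embryos were at the stage of 9 somites, and each cell was picked by capillary and hybridized on its own 1-colour array after amplification of its cDNA. Because no source names the embryo from which a cell was taken, each genotype counted as 1 sample, no test was made, and differences of mean log2 signal (KO minus WT) are set beside the SD between cells pooled over the genotypes.

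D-type cyclins are the regulatory subunits that growth signals induce in G1, and they activate CDK4 and CDK6. These kinases, and then cyclin E with CDK2, phosphorylate the retinoblastoma protein encoded by *Rb1*, which releases E2F factors and opens the way to S phase. The inhibitors p21 (*Cdkn1a*) and p27 (*Cdkn1b*) bind cyclin-CDK complexes, and MYC is a transcription factor that drives growth and entry into the cycle. The comparison of genotypes addresses how the loss of *Sox17* in the mesoderm bears on the RNA of these genes in the endocardium, the inner endothelial layer of the heart. The genotypes also differ in Cre and in the *Mesp1* allele that carries it, which cannot be told apart from the loss of *Sox17*.

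Of the 10 genes, 7 were called well above background by the scanner software in at least 1 cell, and *Ccnd3* and *Cdk4* were so in all 8 cells. Over the whole array, 20324 of 35526 genes were detected in this way, 30.8% of them in all 8 cells. *Cdk6*, *Rb1* and *Cdkn1a* were so in no cell. *Ccnd1*, *Ccnd2*, *Cdk2* and *Myc* were bright in some cells and at the floor in others within the same genotype, and *Cdkn1b* was detected in 4 cells but stayed under the floor in all 8. The floor is a scaled signal of 50 (5.64 on the log2 scale), and values at it have no order. Of these genes, *Myc* alone was at least 5-fold lower in the mean of the KO cells, and no gene was at least 5-fold higher. Both *Myc* and *Cdk2* were above the floor in WT cells 2, 3 and 4 and not in WT cell 1.

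The probes that carry these results are 60 bases long and were designed on mm9. A probe reads its own 60 bases of the transcript only, and the last 30 of these are given. For *Cdk4* the probe with the highest mean is printed. The amplification was primed at the poly(A) tail, and capitals mark AATAAA, the signal for poly(A) addition, found in 10.05% of all probes. Coordinates are those of the printed bases.
*Ccnd3*, chr17:47736297-47736326, plus strand: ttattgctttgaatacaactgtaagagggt
*Ccnd3*, second probe, chr4:138900307-138900336, minus strand: ctgctgccttAATAAAgatttcagAATAAA
*Cdk4*, chr10:126504309-126504338, plus strand: ttttttatacaggaaaacaagacaagacaa
*Cdk2*, chr10:128135658-128135687, minus strand: gttttagcgttcggcctcacctagcaatca
*Myc*, chr15:61821447-61821476, plus strand: gaaactctggtgcataaactgacctaactc
The second *Ccnd3* probe was placed by the array design on chromosome 4, whereas *Ccnd3* lies on chromosome 17. RefSeq lists a pseudogene, Ccnd3-ps, on chromosome 4, so that the signal of this probe may come from *Ccnd3*, from that copy or from both.

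The labels were checked first. The scanner software detected neither of the 2 *Sox17* probes in any cell, with scaled signals of 1.09 to 6.18 for one and 1.23 to 4.18 for the other, so that *Sox17* could not check the genotype labels. By the paper, PCR for marker genes had assigned each cDNA its cell type, so that markers on the arrays are no independent check of that type. The scanner software detected 7, 8, 9 and 10 of 10 endocardial or endothelial markers in the WT cells, in the order of their numbers, and 6, 9, 9 and 8 in the KO cells. Their summed scaled signal ran from 10175 to 35733 in WT and from 7223 to 79448 in KO cells. Of 9 cardiomyocyte markers, 3 to 7 were well above background in each cell of either genotype, with sums of 577 to 34277 in WT and 1259 to 48942 in KO cells, and *Tbx5* was so in no cell. Of 3 smooth muscle markers, *Acta2* and *Tagln* were well above background in every cell and *Cnn1* in none, with sums of 150 to 14425 in WT and 150 to 7772 in KO cells. Of 5 blood markers, *Hbb-bh1* was well above background in WT cells 1 and 2 and the others in no cell, and of 5 endoderm markers none was so. Every blood and endoderm marker was at the floor in all 8 cells, so that their sums were 250 throughout. The cardiomyocyte sum exceeded the endocardial sum in WT cell 2 (34277 against 10175), KO cell 1 (48942 against 7223) and KO cell 4 (29079 against 14022). The highest smooth muscle sum of each genotype was in WT cell 2 and KO cell 4. The part of cardiomyocyte and smooth muscle RNA in the results below was not tested. Between 11370 (WT cell 1) and 18175 (WT cell 4) probes were well above background per array, and since the WT arrays and the KO arrays occupied different columns of 1 slide, genotype and slide position cannot be told apart.

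The D cyclins differed in how many cells carried them. *Ccnd3*, the cyclin that was present in every cell, measured 16.62, 14.05, 14.11 and 14.21 (log2) in WT and 13.79, 14.34, 12.66 and 15.15 in the KO cells with the probe on chromosome 17 (values of a genotype are given in the order of cells 1 to 4). WT cell 1 was the highest cell, and the other 3 WT cells lay within the range of the KO cells. The difference was -0.76 (SD 1.15). With the probe on chromosome 4, which stands for the gene below because its mean was the higher, the values were 16.79, 14.42, 14.13 and 14.57 in WT and 15.14, 14.60, 14.38 and 15.20 in KO cells. The same WT cell stood highest, and the difference was -0.14 (SD 0.91), or 0.46 without WT cell 1. The probes followed each other over the 8 cells with Pearson's r of 0.84, and the widest gap between their deviations from the mean over cells was 1.18. The sign on the chromosome 4 probe thus turned when WT cell 1 was left out.

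*Ccnd1*, the D cyclin best known as a target of growth factor signals, was read by 1 minus-strand probe on chromosome 7 (chr7:152116202-152116261). Its values were 5.64, 8.10, 5.68 and 12.45 in WT and 5.64, 5.64, 12.18 and 5.64 in KO cells. Thus 1 bright cell of each genotype, WT cell 4 and KO cell 3, made up nearly the whole signal, and these were the cells with the most probes well above background in their genotype. The difference was -0.69 (SD 3.24). It was -2.32, just past 5-fold, when KO cell 3 was left out and 0.80 when WT cell 4 was. *Ccnd1* was well above background in every cell except KO cell 2, so that WT cell 1 and KO cells 1 and 4, at the floor, were dim but not blank. Over the 8 cells its value followed the number of probes well above background with r of 0.76, the highest among the members. That r was 0.50 for *Cdk2*, 0.23 for *Myc*, 0.02 for *Ccnd2*, -0.34 for *Cdk4* and -0.60 for *Ccnd3*. The part of depth in these values was not tested.

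*Ccnd2*, another D cyclin, was read by 1 minus-strand probe on chromosome 6 (chr6:127098696-127098755), at position 609 of its transcript. The distance of this probe from the poly(A) end was not examined. It measured 5.64, 6.12, 10.54 and 5.64 in WT and 11.71, 5.64, 10.66 and 5.64 in KO cells. The bright cells were WT cell 3 and KO cells 1 and 3, and the remaining cells were at or near the floor. The difference was 1.43 (SD 2.84), with a range of 0.33 without KO cell 1 to 2.61 without WT cell 3. It passed 5-fold when WT cell 3, KO cell 2 or KO cell 4 was left out. Both *Ccnd3* probes were well above background in all 8 cells, whatever the level of *Ccnd1* or *Ccnd2*.

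**Figure D1:**
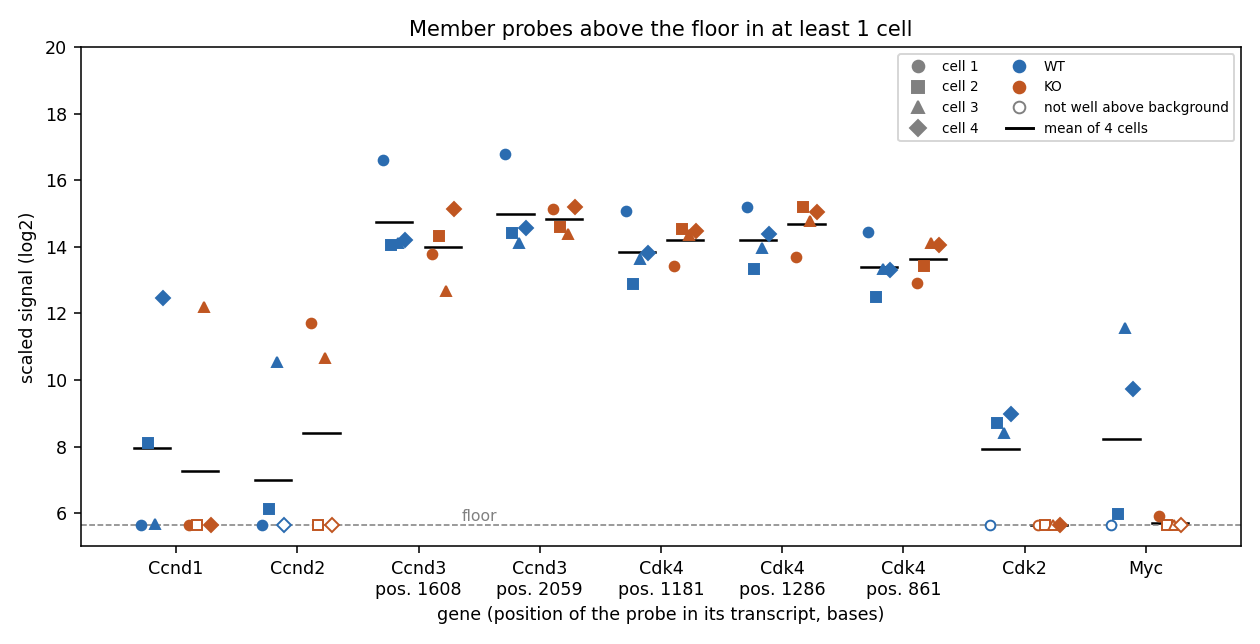
Scaled signal (log2) of each probe of *Ccnd1*, *Ccnd2*, *Ccnd3*, *Cdk4*, *Cdk2* and *Myc* in 4 WT (blue) and 4 KO (orange) cells. Symbols tell the cells apart, open symbols are not well above background, black bars are means of 4 cells and the dashed line is the floor (5.64). The *Ccnd3* and *Cdk4* probes were above 12 in all 8 cells, whereas *Ccnd1*, *Ccnd2*, *Cdk2* and *Myc* had cells at the floor in both genotypes.

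Among the kinases, *Cdk4*, the catalytic partner of the D cyclins, was present in every cell and was read by 3 probes on chromosome 10 at positions 861, 1181 and 1286 of its transcript. With the probe at position 1286, which had the highest mean, the values were 15.20, 13.33, 13.98 and 14.38 in WT and 13.70, 15.20, 14.79 and 15.04 in KO cells. The ranges of the genotypes overlapped, with WT cell 1 as high as KO cell 2. The difference was 0.46 (SD 0.73) at position 1286, 0.35 (SD 0.75) at position 1181 and 0.24 (SD 0.70) at position 861. All 3 were smaller than the SD between cells, and the pairs of probes had r of 0.86 to 0.97 over the 8 cells. With quantile normalization between arrays the difference at position 1286 was -0.12. A further probe, named in the files by the transcript ENSMUST00000140254 and sharing 53 bases with this probe, had a difference of 0.46 as well.

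The spread of *Cdk4* over cells was like that of other genes seen in every cell. Its SD of 0.73 was larger than that of 49.2% of the 6259 genes well above background in all 8 cells, for which the median was 0.74. For *Ccnd3* that share was 60.2%. Among the 5870 genes compared, the gene most like *Ccnd3* over the 8 cells was *Myh14*, a nonmuscle myosin heavy chain gene (r = 0.99), and 123 genes had r over 0.9. The most like *Cdk4* was ENSMUST00000140254 (r = 0.998), followed by *Actb*, which encodes cytoplasmic actin (r = 0.96). Each r describes 8 cells that share amplification and array, and WT cell 1 stood highest for *Ccnd3*.

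*Cdk6*, the kinase that shares the D cyclins with CDK4, was at the floor in all 8 cells. Its probe (chr5:3522106-3522165, position 2350 of its transcript) reached a scaled signal of 4.35 at most and was well above background in none. An absent signal from 1 probe after amplification from the poly(A) end bounds the amplified RNA at this stretch only. The distance of the probe from that end was not examined.

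*Cdk2*, the kinase partner of cyclins E and A, was above the floor only in WT cells. Its probe measured 5.64, 8.71, 8.42 and 8.98 in WT cells and was at the floor in all 4 KO cells. In scaled signal, WT cells 2 to 4 had 418.49, 341.71 and 505.61, whereas WT cell 1 had 3.62 and KO cells 1 to 4 had 7.14, 3.70, 1.35 and 15.15. WT cell 1 therefore lay with the KO cells, and the genotypes overlapped. The difference was -2.29 (SD 1.09), a 4.90-fold lower mean in KO cells that the floor sets: it was -3.89 with a floor of 10 and -0.79 with a floor of 200. Without WT cell 1 it was -3.06, and without WT cell 4 it was -1.95. *Cdk2* was well above background in KO cell 4 as well, under the floor.

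A signal above the floor in at least 3 WT cells and in no KO cell, as for *Cdk2*, was found for 0.674% of the 20324 genes that the scanner software detected in any cell. The mirror pattern, in at least 3 KO cells and in no WT cell, was found for 0.467% of them and for none of the 10 genes. A difference as low as that of *Cdk2* or lower was found for 3.29% of the genes. The pattern was worded from the values of *Cdk2* itself, so its share is no evidence about that gene. Genes above the floor in fewer than 3 cells cannot show it, and genes without a difference lower all of these shares. The shares among genes detected as often as *Cdk2* were not examined. The array with the fewest probes well above background was that of WT cell 1, which was marked for evaluation by the scanner software, and the part of its depth in these values was not tested.

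The inhibitors of the group gave little signal. *Cdkn1a*, which encodes p21 and is a target of p53, was read by 2 probes on chromosome 17 at positions 55 and 1619 of its transcripts, and neither was well above background in any cell. The probe at position 1619 was printed at 10 spots per array, and the highest scaled signal over 8 cells was 8.81 at position 55 and 4.30 at position 1619. *Cdkn1b*, which encodes p27, was well above background in WT cells 2 and 4 and KO cells 3 and 4, which were the 4 arrays with the most probes well above background. Its scaled signals were 10.44, 8.40, 10.05 and 6.41 in WT and 2.87, 8.22, 8.87 and 27.87 in KO cells, all under the floor, and no difference is given. Transcript-named probes near *Cdkn1a* and *Cdkn1b* were well above background in no cell.

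*Rb1*, the target of these kinases, was likewise at the floor in every cell. Its probe (chr14:73595408-73595467) was printed at 10 spots per array and reached a scaled signal of 4.84 at most. For *Rb1*, *Cdk6* and *Cdkn1a* the arrays thus gave no value that can be compared between genotypes.

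*Myc* was bright in some WT cells and dim in all KO cells. Its values were 5.64, 5.98, 11.57 and 9.74 in WT and 5.91, 5.64, 5.64 and 5.64 in KO cells. WT cells 3 and 4 stood above all others, whereas WT cell 2 and KO cell 1 were just above the floor, so that the genotypes overlapped. The difference was -2.52 (SD 2.05), a 5.74-fold lower mean in KO cells that the floor sets, since 1 WT and 3 KO cells were at it. It was -1.50 with a floor of 200 and -2.26 with quantile normalization, both under 5-fold, and -3.68 with a floor of 10. The 2 spots of the probe on each array varied by 0.2% to 8.4% (coefficient of variation), far less than the cells did. Without WT cell 3 the difference was -1.41, without WT cell 4 it was -2.02, both under 5-fold, and without WT cell 1 it was -3.38.

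Across the arrays, 3.23% of the 20324 genes were at least 5-fold lower in the mean of the KO cells and 3.21% at least 5-fold higher, against 1 and 0 of the 7 detected members. The genotypes were fully apart for none of the 7, where every KO cell was above every WT cell for 1.13% of genes and below for 0.246%. The median difference over the 7 was -0.14, against 0.00 over all 20324 genes, with 2 members higher and 4 lower. Their median absolute difference was 0.69 against 0.33 over all genes, and their median SD was 1.09 against 0.72. Of the 20324, a positive difference was found for 8102 and a negative one for 6492, and the rest had none. Such unchanged genes lower the median absolute difference and the 5-fold shares over all genes, and among the 7 only *Cdkn1b* was one. The medians therefore do not show that the members differed more than comparable genes. With the 3 undetected genes at the floor the median difference over the 10 was 0.00. A count of 1 gene is too small a number to set the group apart from all genes.

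**Figure D2:**
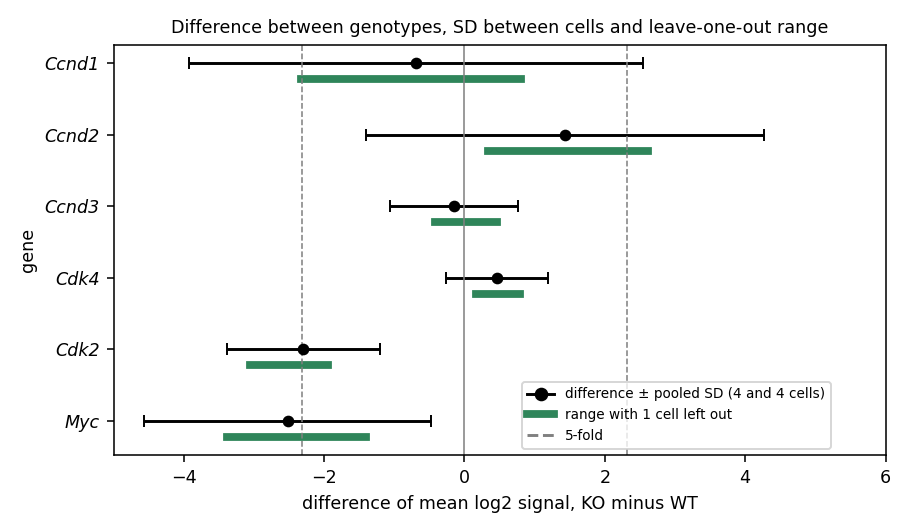
Difference of mean log2 signal (KO minus WT, x axis) for the 6 genes above the floor in at least 1 cell (y axis), by the probe with the highest mean. Points and black bars are the difference and the pooled SD between 4 WT and 4 KO cells, green bars the range when 1 cell is left out, and dashed lines mark 5-fold. The green bars of *Ccnd1* and *Ccnd3* cross 0, and those of *Cdk2* and *Myc* lie below 0 and cross the 5-fold line.

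By cell, the number of the 10 genes above the floor was 2, 6, 6 and 5 in WT and 4, 2, 4 and 2 in KO cells. WT cell 1, KO cell 2 and KO cell 4 held only *Ccnd3* and *Cdk4* above the floor. The scanner software detected 4, 7, 6 and 6 of them in the WT cells and 5, 2, 5 and 5 in the KO cells. KO cell 2 and WT cell 1, with the fewest of the 10 genes, also had the fewest probes well above background in their genotype, 12781 and 11370.

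The other genes of the pathway were 40 in number, of which 35 were well above background in at least 1 cell. Among these 35, 17 were higher and 14 lower in KO cells, with a median difference of 0.00. There were 2 at least 5-fold higher (*Cdkn2d* and *Cks1b*) and 2 at least 5-fold lower (*Ccna2* and *Mdm2*), and for none were the genotypes fully apart. Of all 20324 detected genes, 8102 were higher and 6492 lower, 3.21% at least 5-fold higher and 3.23% at least 5-fold lower. Every KO cell was above every WT cell for 1.13% of them and below for 0.246%. Counts this small do not set the pathway genes apart from all genes.

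Of the 5 other inhibitors, 3 were detected. *Cdkn2d*, which encodes p19, an inhibitor of CDK4 and CDK6, measured 5.64, 6.67, 5.64 and 5.64 in WT and 12.20, 10.89, 7.79 and 5.64 in KO cells. It was above WT in 3 KO cells, with KO cell 4 at the floor, and the difference was 3.23 (SD 2.13). With a floor of 200 it was 1.99, and without KO cell 1 it was 2.21. *Cdkn1c*, which encodes p57, was well above background in all 8 cells, at 17.29, 16.24, 16.40 and 16.84 in WT and 17.92, 15.63, 16.69 and 17.32 in KO cells. The genotypes overlapped, and the difference was 0.20 (SD 0.77). *Cdkn2b* and *Cdkn2c* were detected in no cell, and *Cdkn2a* in 1 cell under the floor.

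Of 12 pocket protein and E2F genes, 10 were detected, 6 higher and 4 lower, and none was 5-fold apart. *Tfdp1*, the dimer partner of E2F, was detected in all 8 cells with a difference of -1.28 (SD 2.49). Of 7 genes for cyclins E and A, CDC25A and the CDK-activating kinase, 3 were higher and 3 lower. *Ccna2*, the cyclin A that binds CDK2 in S phase, measured 5.64, 12.19, 5.64 and 9.45 in WT cells and was well above background in no KO cell. Its mean was 6.02-fold lower in KO cells (difference -2.59, SD 2.26), which rests on WT cells 2 and 4. The floor sets this fold, since WT cells 1 and 3 and all KO cells were at it. The difference was -1.27 without WT cell 2 and -1.59 with a floor of 200, both under 5-fold. Beside this, 3, 6, 1 and 1 of 6 G2/M genes were detected in WT cells against 1, 1, 1 and 3 in KO cells, with 4 or 5 of 5 S phase genes in every cell. All 6 G2/M genes were lower in the mean of the KO cells, with a median difference of -1.06, and *Aurka* (-4.16, SD 3.50) and *Cdk1* (-2.81, SD 2.86) were at least 5-fold lower. Without WT cell 2, which held all 6, only 3 were lower and the median was -0.41. *Aurka* was at -2.29 without WT cell 1, and *Cdk1* at -2.09 without WT cell 2, -1.81 with a floor of 200 and -1.14 over the mean of its probes, all under 5-fold. Of the S phase genes 3 were lower and 2 higher (4 and 1 with the 75th percentile, the percentile of all probes, no scaling or quantile normalization), with *Rrm2* at least 5-fold lower (-4.05, SD 2.91). *Aurka*, *Cdk1* and *Rrm2* were named after their values were seen. Over all 20324 detected genes, 3.23% were at least 5-fold lower. The part of cell cycle phase in the *Ccna2* value was not tested.

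Of 6 genes for the ubiquitin ligase that turns over p27, 3 were higher and 3 lower. *Cks1b*, the cofactor by which SKP2 binds p27, measured 5.64, 12.29, 12.58 and 5.64 in WT and 14.20, 13.87, 12.05 and 14.57 in KO cells. KO cells were bright throughout, and WT cells 2 and 3 reached the level of KO cell 3. The difference was 4.63 (SD 2.89). It was 3.50 when WT cell 1 or WT cell 4 was left out and 5.81 when WT cell 3 was. The study lists *Cks1b* among its genes raised in these same cells, so that this value is no independent evidence of direction. *Skp1a* and *Rbx1*, subunits of that ligase, were detected in all 8 cells with differences of 1.41 (SD 3.23) and -0.13 (SD 3.77).

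Of 10 partners and regulators of MYC and p53, 9 were detected, 3 higher and 4 lower. *Mdm2*, which encodes the ubiquitin ligase of p53, measured 5.64, 8.12, 11.52 and 10.99 in WT cells and was at the floor in all 4 KO cells. As for *Cdk2*, WT cell 1 was at the floor with the KO cells, and the difference was -3.43 (SD 1.93), or -1.93 with a floor of 200. It was well above background in 1 KO cell. *Max*, the dimer partner of MYC, was well above background in all 8 cells but above the floor in WT cell 3 alone (difference -1.36, SD 1.93). *Mnt*, a repressor that also pairs with MAX, was detected in all 8 cells with a difference of 0.25 (SD 3.87).

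**Figure D3:**
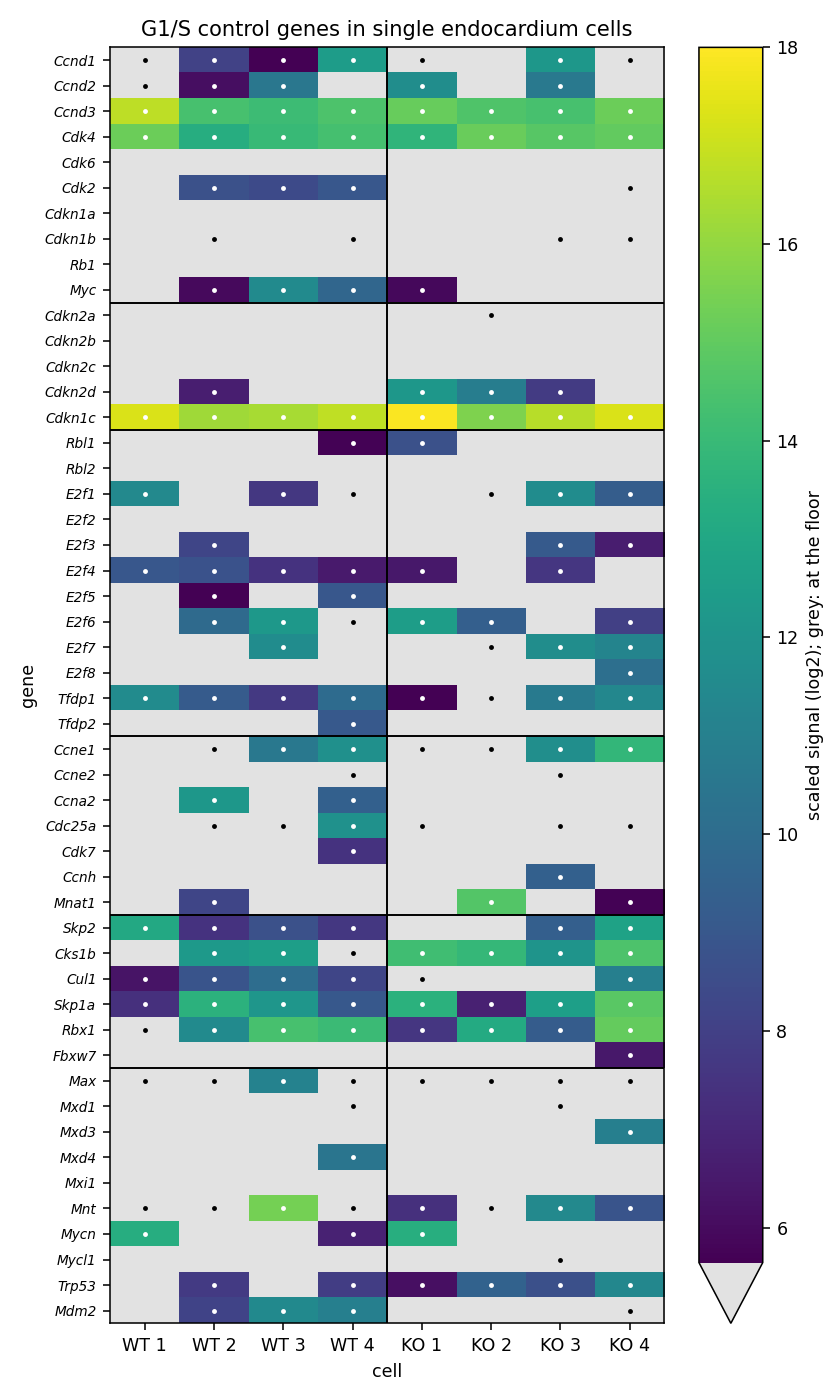
Scaled signal (log2, colour) of the 10 genes (top block) and 40 other genes of G1/S control (blocks from top to bottom: inhibitors, pocket proteins and E2F, cyclins E and A with the CDK-activating kinase, p27 turnover, MYC and p53) in WT and KO cells 1 to 4. Grey marks the floor and dots mark cells in which the probe was well above background. *Ccnd3*, *Cdk4*, *Cdkn1c* and *Skp1a* are filled in all 8 cells, whereas most rows are filled in a few cells of either genotype.

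Promoter sequences were read for 6 of the 10 genes from RefSeq (GRCm38.p6), from 250 bases before to 50 after each start. The E-box CACGTG, which MYC with MAX can bind, was searched on both strands and occurs in 7.2% of 32851 such promoters. Of the 6 genes, *Cdk4* and *Cdk6* held it. The E2F letters TTTCGCGC, TTTGGCGC, TTTCCCGC or TTTGCCGC, on either strand, occur in 2.3% of promoters and among these 6 genes in *Cdk2* only. One stretch of each is given with the match in capitals, since *Cdk4* was present in every cell and *Cdk2* in WT cells 2 to 4.
*Cdk4*, chr10:127063405-127063434 (GRCm38.p6), plus strand: aagtcaaggggtCACGTGggatagcaacag
*Cdk2*, chr10:128705173-128705202 (GRCm38.p6), minus strand: aaccaggaactGCGGGAAAgttgtgcagct
In *Cdk4* the E-box printed begins 118 bases before the start, 1 of 4 in that promoter. A match describes these letters and does not show binding.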

How the data were processed

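Single endocardium cells (4 WT and 4 KO, 1 array each) were analysed. The authors deposited the output of Agilent Feature Extraction 12.0.2.2 (array design 028005, mm9), and these intensity values, as deposited, were corrected for background and trend within each array but not normalized between arrays. After removal of control and outlier spots, the mean of the remaining spots was taken per probe, which left 55295 of 55681 probes with a value on all 8 arrays. The 7570 probes called well above background throughout gave each array's 50th percentile, to which it was scaled. Lower values were then raised to a floor of 50 before log2 transformation. A gene is given by its probe with the highest mean. No spot was saturated. Between 11370 and 18175 probes per array were well above background, and the number of arrays limits precision. There was 1 slide and 1 scan.

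Every member and probe is reported. Other pathway genes are named when at least 5-fold apart (the fold of the study's methods), when the genotypes do not overlap or when detected in all 8 cells. Members, lists and rules were chosen with earlier results of these data known. Alternatives were the 75th percentile, the percentile of all probes, the floor without scaling, quantile normalization, normexp (offset 50), a floor of 10 or 200, averaging over a gene's probes, use of probes detected on all arrays alone, and each cell left out. Steps were tested on simulated data. Python 3.11.15, numpy 2.4.6, pandas 2.3.3, matplotlib 3.10.9, R 4.3.3 and limma 3.58.1 were used. Cells came from the heart tube per the labels and from the ventricle per the paper.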

Additional observations from a re-analysis of the deposited data

Results flagged for a closer look

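In 7 of the 17 groups of 4 cells that could be examined for a cell far from the rest, the gap of 1 cell to its nearest neighbour took up most of the range (Dixon's ratio above its 95% critical value). Chance flags about 1 in 20 independent groups, a rate that cannot be set against this count because several groups held cells at the floor and the probes of a gene follow each other. In 2 of them the other 3 cells were at the floor: *Ccnd1* in KO cells, with KO cell 3 alone high (ratio 1.0), and *Myc* in KO cells, with KO cell 1 alone above the floor (ratio 1.0). *Ccnd2* had WT cell 3 far above the other WT cells (ratio 0.904). *Ccnd3* had WT cell 1 far above the other WT cells on both probes, with ratios of 0.939 on chromosome 17 and 0.835 on chromosome 4. *Cdk4* had KO cell 1 below the other KO cells on the probe at position 1181 (ratio 0.843). *Cdk2* had WT cell 1 at the floor, below the other WT cells (ratio 0.831).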

How the results depend on the processing

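Differences of the 6 members above the floor in at least 1 cell moved by less than the SD between cells in 96 of 98 recomputed values. The 2 exceptions were *Cdk2* with floors of 10 (-3.89) and 200 (-0.79). Leaving out 1 of 4 cells cannot move a difference by that SD, so the values with a cell left out had to pass. For them this count does not show stability. The sign changed for *Ccnd1* without WT cell 4, *Ccnd3* without WT cell 1 or KO cell 3, and *Cdk4* under quantile normalization. The 4 members at the floor throughout had a difference of 0.35 at most (*Cdkn1b*, floor of 10). The count of members at least 5-fold lower, 1 as reported, was 2 with the 75th percentile, the percentile of all probes, the floor without scaling or a floor of 10 (*Cdk2* with *Myc*), and 0 with a floor of 200, quantile normalization or the use of probes detected in all 8 cells alone. With 1 cell left out it ran from 0 (WT cell 3 or 4) to 2 (KO cell 3, with *Ccnd1*, or WT cell 1, with *Cdk2*), and members at least 5-fold higher ran from 0 to 1 (*Ccnd2*). Other pathway genes at least 5-fold higher, 2 as reported, were 4 with a floor of 10 and 1 with a floor of 200. They were 3 with quantile normalization, 0 with probes detected in all 8 cells alone, and 2 to 4 with 1 cell left out. Those at least 5-fold lower, 2 as reported, were 4, 0, 2 and 0 under the same settings in that order. With 1 cell left out they were 1 to 4. The cause was not tested, except that a higher floor shortens every difference from it. Normexp and a floor of 10 moved the median of all detected genes by 0.23 and 0.16. No paired analysis was possible because the numbers of the cells name no shared embryo and no test was made. Signal over background limits *Cdk6*, *Rb1*, *Cdkn1a* and *Cdkn1b* to bounds at the stretches that their probes read.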
